A study of Mus musculus with 8 samples.

Results

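Calmodulin and the protein kinases it switches on form the arm of calcium signalling that runs beside the phosphatase calcineurin. The 9 genes described here are Calm2 and Calm3, which encode calmodulin, and the kinase genes Camk1, Camk1d, Camk2b, Camk2d, Camk2g, Camkk1 and Camkk2. They were taken by name, with earlier results of these data known, from the 42416 mouse genes of the deposited count tables. Read counts came from RNA of sorted fragments of the distal convoluted tubule, a short stretch of the nephron where salt is taken up by Slc12a3, the target of thiazides. There were 4 libraries labelled Control and 4 labelled KO, each from another animal number and from 1000 fragments. The Control animals were wild type at Cnb1fl (label "Cnb1fl wt"), and the KO animals were homozygous for it ("Cnb1fl Tg/Tg"). Cnb1 is the regulatory B subunit of calcineurin, whose gene symbol is Ppp3r1. Animals of both groups carried NCCcre Tg/+, a Cre transgene named for the cotransporter, and TOMATO Tg/+. Tamoxifen, which turns on the inducible deletion, was given to all by gavage on 5 days (2 mg a day), and tissue was taken 3 weeks later. The labels give neither age nor sex, and the series design names the comparison as control against knockout of calcineurin in this segment.

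Calmodulin is a small protein that changes shape when calcium binds to it and then activates many enzymes, calcineurin among them. CaM kinase kinases (Camkk1, Camkk2) phosphorylate and activate CaM kinase I (Camk1, Camk1d), and Camkk2 also activates the energy sensor AMPK. CaM kinase II (Camk2b, Camk2d, Camk2g) assembles into large rings and, once calmodulin has bound, phosphorylates itself and stays active after calcium has fallen. In many cells kinases and calcineurin act in opposite directions on shared substrates.

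The genes are close copies of each other, so the first question is whether their reads can be told apart. In GENCODE vM21 (GRCm38) the coding sequences of Calm2 and Calm3 are 447 bases long and identical at 82.6% of positions. Both translate to the same protein. The longest run of coding bases that Calm2 and Calm3 share is 17. Camk2b and Camk2d were identical at 78.2% of aligned coding bases, with a longest shared run of 23, and Camk2d and Camk2g at 76.9%, also with 23. Camk2b and Camk2g, identical at 77.6%, had the longest shared run of the pairs compared, 29 bases. Camk1 and Camk1d were identical at 71.8%, and Camkk1 and Camkk2 at 68.6%. The pairs compared thus match exactly over at most 29 coding bases at a time, and sequence outside the coding parts was not compared. How the counting treated reads that match several genes is not given in these sources. A split of reads between copies was not tested. The stretch below shows how CaM kinase II genes with nearly the same protein differ at the level of bases. It covers 84 coding bases (850 to 933 of each coding sequence) that start just before the threonine of self-phosphorylation and run into the calmodulin-binding segment. Of its 28 codons, 27 give the same amino acid in both genes. Capitals mark the 18 bases at which the copies differ. That of Camk2b lies in 2 exons within chr11:5988114-5989008 (minus strand), and that of Camk2d in 2 exons within chr3:126797732-126798267 (plus strand).
Camk2b: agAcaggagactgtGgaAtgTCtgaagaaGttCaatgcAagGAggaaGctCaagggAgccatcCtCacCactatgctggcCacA
Camk2d: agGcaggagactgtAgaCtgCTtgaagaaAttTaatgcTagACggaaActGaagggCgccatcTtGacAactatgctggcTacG

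Libraries held 18161442 to 45150953 counts. CPM below is a gene's count relative to library size, with TMM factors that correct for differences in composition. Slc12a3 stood at 5651 to 8049 CPM in Control and 3911 to 8074 CPM in KO, so the marker of the labelled segment was high in all 8 libraries. Of the 8 distal convoluted tubule markers listed, 4 were called lower in KO and 0 higher. The sum of all 8 was 12420 to 17190 CPM in Control and 7131 to 11010 CPM in KO. Markers of the neighbouring thick ascending limb summed to 7462 to 12220 CPM in Control and 2738 to 5465 CPM in KO, with Umod called lower. Ppp3r1 itself overlapped between the groups, with a mean ± SD over 4 libraries of 97.4 ± 9.87 CPM for Control and 86.2 ± 10.8 CPM for KO (edgeR quasi-likelihood adjusted p = 0.548). Gene-level counts cover its whole length, so it does not check the genotype labels. With bulk fragments, fewer cells of a type and less RNA per cell cannot be told apart.

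None of the 9 genes passed the threshold of 0.05 on the adjusted p. The test was edgeR's two-sided quasi-likelihood F test over all 14268 genes that passed the filter on low counts, with Benjamini-Hochberg adjustment over all of them. All 9 genes passed that filter. Of all genes tested, 2.21% were called, so 0 of 9 is no departure from the background. DESeq2 and limma-voom called 0 of the 9 as well. At an unadjusted p under 0.05, 3 of the 9 stood out by edgeR (Camk1d and Camkk1 higher, Camk2b lower), against 13.9% of all genes. That was 33.3% of the 9 genes, which were chosen with earlier results known. Under the same unadjusted limit DESeq2 found the same 3 genes. By limma-voom 2 were higher and 0 lower, and the higher genes were Camk1d (limma adjusted p = 0.179) and Calm3 (adjusted p = 0.243). Neither Camkk1 (limma adjusted p = 0.459) nor Camk2b (adjusted p = 0.358) was under the unadjusted limit there. The median log2 fold change of the 9 was -0.02, as for all genes tested (-0.02), with 4 above 0 and 5 below. The groups did not overlap in 1 of the 9 (Camk1d), where 9.44% of all genes tested showed no overlap.

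**Figure D1:**
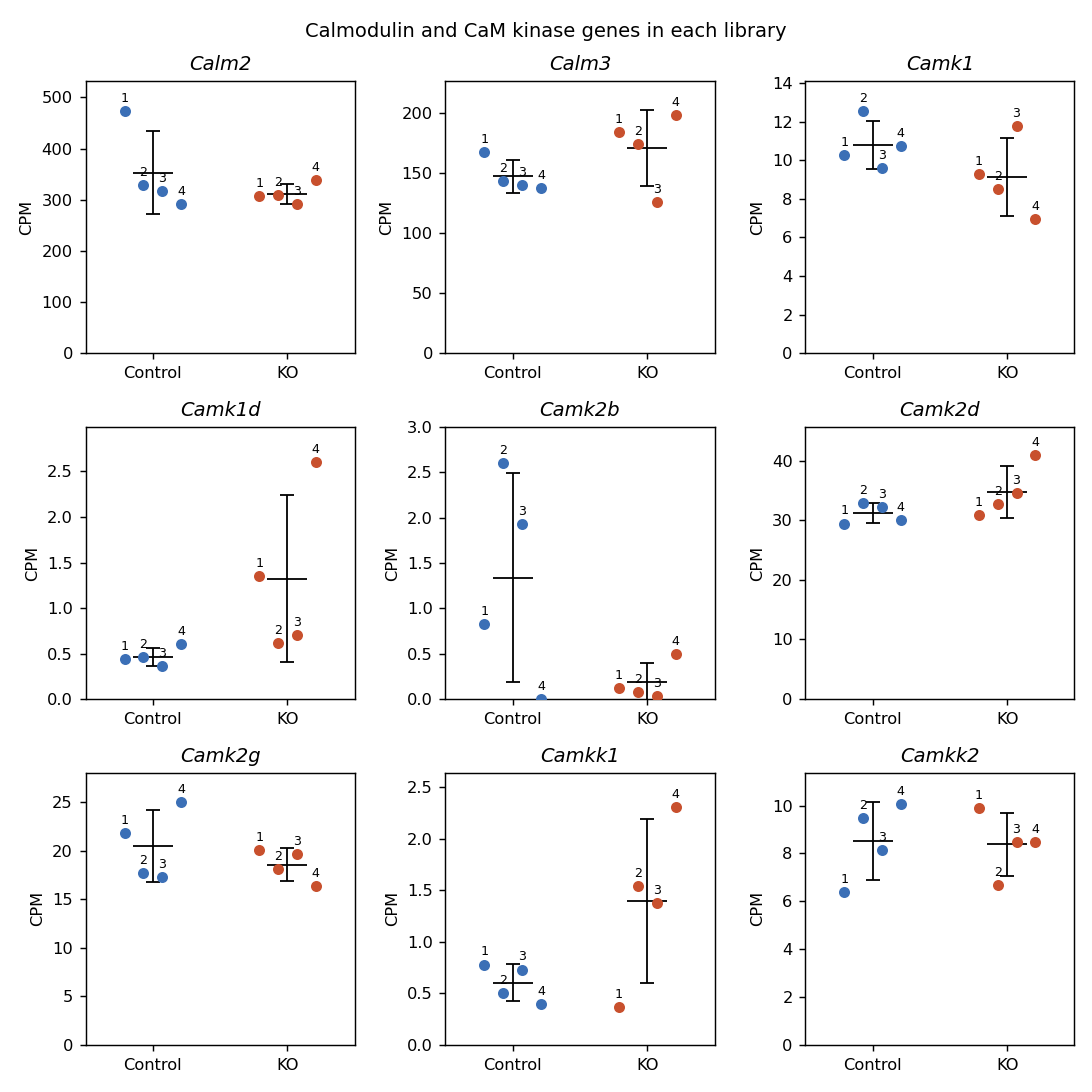
CPM of each of the 9 genes (vertical axes, linear, from 0) in the 4 Control and 4 KO libraries. Points are libraries with their replicate number, and bars are the mean and SD. Only in the panel of Camk1d do all KO points lie above all Control points, and Camk2b in Control spreads from 0 to 2.60 CPM.

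The calmodulin genes were by far the most abundant of the set. To compare levels between genes, counts were divided by the length of all annotated exons and scaled to the same total in every library, as in TPM. On this length-scaled level Calm2 stood at 509 ± 63.8 in Control (SD, n = 4) and Calm3 at 130 ± 5.73. These levels were above those of 98.8% and 94.7% of all genes tested. The kinases lay far lower, in the order Camk2g (6.85 ± 1.32), Camk1 (3.90 ± 0.766), Camk2d (2.99 ± 0.430) and Camkk2 (1.70 ± 0.466). Camkk1 (0.342 ± 0.0808), Camk2b (0.324 ± 0.298) and Camk1d (0.135 ± 0.0355) were lowest, at or below the 3.73rd percentile of tested genes. In Control, Camk1 and Camk2d overlapped in range (3.16 to 4.91 against 2.40 to 3.42), as did Camkk1 and Camk2b (0.242 to 0.427 against 0 to 0.667) and Camk2b and Camk1d. All other neighbours in that order were separate in all 4 Control libraries. With the length of the longest coding transcript instead, a choice made after the data were seen, the order among the middle kinases changed. Camk1 was then first (15.6 ± 3.06), followed by Camk2d (12.2 ± 1.75) and Camk2g (11.8 ± 2.29), and Camk2b (0.734 ± 0.676) stood above Camkk1 (0.373 ± 0.0880). The annotated exons of Camk2d add up to 22493 bases against 5524 in its longest coding transcript, so its rank rests on the length used. Calmodulin first, Camkk2 below the other middle kinases, and Camk1d last held with both lengths. The length-scaled level does not use the TMM factors, so it is not the contrast that was tested. With all annotated exons, the KO means of Calm2 (541), Camk2g (7.36) and Camkk2 (1.96) lay above Control, while their CPM means lay below. The other genes of the set kept their direction.

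**Figure D2:**
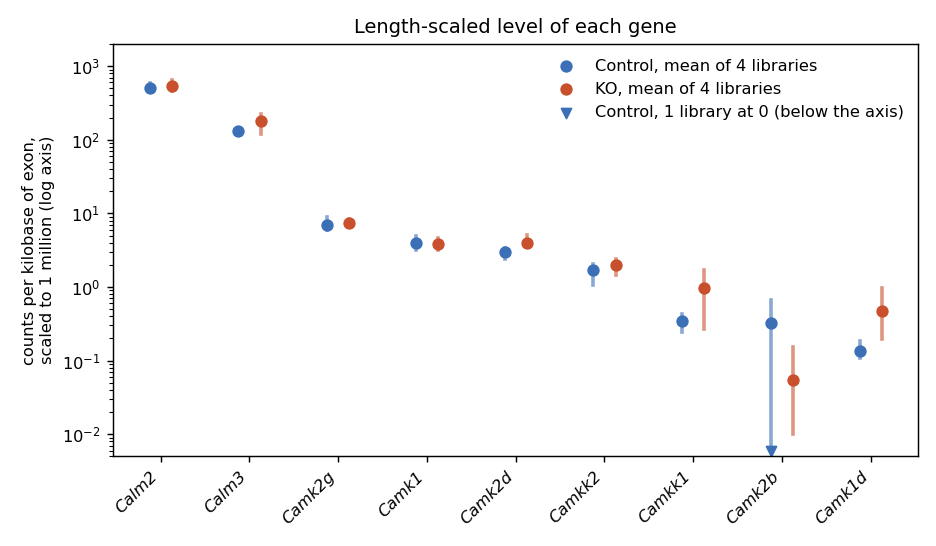
Length-scaled level of each gene on a log axis, ordered by the Control mean. Points are means of 4 libraries, lines run from the lowest to the highest library, and the triangle marks a line that ends in a library at 0 and cannot be drawn on a log axis. Calm2 and Calm3 lie above 100, the 4 middle kinases between 1 and 10 in their means, and the 3 others below 1.

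Of the calmodulin genes, Calm2 (ENSMUSG00000036438, chromosome 17, 87433412 to 87446935, minus strand) stood at 474, 329, 318 and 292 CPM in Control replicates 1 to 4. In KO replicates 1 to 4 it stood at 307, 309, 291 and 338 CPM. Control replicate 1 was the highest of the 8 libraries, and the other 7 lay close together in both groups. KO over Control gave a log2 fold change of -0.18 ± 0.16 (SE, n = 4 per group; edgeR adjusted p = 0.621), with a 95% interval of 0.689-fold to 1.13-fold. Without Control replicate 1 the log2 fold change was -0.01.

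Calm3 (ENSMUSG00000019370, chromosome 7, 16915379 to 16924114, minus strand) encodes the same protein from another locus. It stood at 168, 143, 140 and 138 CPM in Control and at 184, 174, 126 and 199 CPM in KO. In 3 KO libraries Calm3 was above every Control library, and KO replicate 3 was the lowest of all 8. Its log2 fold change was 0.21 ± 0.15 (SE, edgeR adjusted p = 0.545), with an interval of 0.918-fold to 1.46-fold. Both calmodulin genes together summed to 501 ± 95.7 CPM in Control and 482 ± 49.5 CPM in KO.

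CaM kinase II was represented almost wholly by Camk2d and Camk2g, the forms known from most tissues. Camk2d (ENSMUSG00000053819, chromosome 3, 126596302 to 126846326, plus strand) stood at 29.5, 32.9, 32.2 and 30.1 CPM in Control. In KO it stood at 30.9, 32.7, 34.6 and 40.9 CPM. The groups overlapped, with KO replicate 4 above the rest. This was a log2 fold change of 0.16 ± 0.12 (SE, edgeR adjusted p = 0.563), and its interval ran from 0.932-fold to 1.33-fold.

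Camk2g (ENSMUSG00000021820, chromosome 14, 20734875 to 20794088, minus strand) stood at 21.8, 17.7, 17.3 and 25.1 CPM in Control. Its KO values were 20.1, 18.2, 19.7 and 16.3 CPM and lay within or just under the Control range. The log2 fold change was -0.14 ± 0.15 (SE, edgeR adjusted p = 0.686; interval 0.724-fold to 1.14-fold) and turned to 0.01 with library totals as the scaling. Over all genes tested, the median log2 fold change was -0.02 with TMM and 0.13 with that scaling.

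Camk2b (ENSMUSG00000057897, chromosome 11, 5969644 to 6066362, minus strand), the form best known from brain and muscle, was near the limit of detection. It had 17, 108, 37 and 0 counts in Control replicates 1 to 4 and 6, 2, 1 and 10 counts in KO replicates 1 to 4. In CPM this was 0.8289, 2.60, 1.93 and 0 in Control and 0.123, 0.0771, 0.0393 and 0.501 in KO. A count of 0 in Control replicate 4 allows up to 0.150 CPM (3 counts), for counting error only. Control replicates 1 to 3 lay above all KO libraries and Control replicate 4 below them, so the groups overlapped. Its log2 fold change was -2.98 ± 1.04 (SE, edgeR unadjusted p = 0.0167, adjusted p = 0.228). Across the other settings that tested it, the adjusted p of Camk2b ran from 0.0949 to 0.427. Leaving out Control replicate 4 gave -3.37 ± 0.74 (edgeR adjusted p = 0.0974), and leaving out KO replicate 4 gave -3.93 ± 1.15 (adjusted p = 0.228).

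Since Camk2b is known from brain, the neuron markers were read beside it, and muscle had no marker list of its own. Of 5 listed, 1 passed the filter and 0 were called. Snap25 was at 0 in all 8 libraries, and Rbfox3, Tubb3 and Syt1 held 1, 7 and 20 counts in all. Their sum, 22.7 to 42.9 CPM in Control and 19.7 to 29.5 CPM in KO, was nearly all Syp. The markers of neurons were thus at or near 0 apart from Syp, and Control replicate 2, highest for Camk2b, held 1 count each of Rbfox3, Tubb3 and Syt1. Acta2, the actin of smooth muscle, was in the stroma list and is named after its values were seen. It stood at 3.02, 5.32, 3.13 and 3.21 CPM in Control and 2.45, 0.501, 0.433 and 1.00 CPM in KO (edgeR adjusted p = 0.161). Its groups did not overlap, as in 9.44% of all genes tested. The part of muscle cells in the level of Camk2b was not tested.

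Camk2b, Camk2d and Camk2g together summed to 53.0 ± 1.60 CPM in Control and 53.5 ± 3.24 CPM in KO. Camk2b held between 0% and 4.88% of these counts in Control and between 0.0724% and 0.867% in KO.

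CaM kinase I differed between its forms. Camk1 (ENSMUSG00000030272, chromosome 6, 113334124 to 113343984, minus strand) stood at 10.3, 12.5, 9.62 and 10.7 CPM in Control. In KO it stood at 9.27, 8.52, 11.8 and 6.97 CPM. In 3 KO libraries it was below every Control library, while KO replicate 3 was second highest of all. KO over Control gave a log2 fold change of -0.24 ± 0.18 (SE, edgeR adjusted p = 0.573; interval 0.638-fold to 1.12-fold). Of its exons, 232 bases overlap the DNA repair gene Ogg1 on the opposite strand, which held 72.3% as many counts. No strand setting is stated, and reads from the overlap could belong to either gene.

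Camk1d (ENSMUSG00000039145, chromosome 2, 5293457 to 5714515, minus strand) was the only one of the 9 whose groups did not overlap, at very low counts. It had 9, 19, 7 and 12 counts in Control and 66, 16, 18 and 52 counts in KO. The Control levels were 0.439, 0.457, 0.366 and 0.601 CPM, and the KO levels 1.36, 0.617, 0.708 and 2.61 CPM. KO replicates 2 and 3 lay just above the highest Control library, and KO replicates 1 and 4 well above it. The log2 fold change was 1.48 ± 0.50 (SE, edgeR unadjusted p = 0.0137, adjusted p = 0.207), with a 95% interval of 1.30-fold to 6.03-fold. The exact two-sided permutation p of the log2 levels was 0.0286, the smallest that 4 libraries against 4 can give, and it was 0.0857 or 0.114 without any single Control library and 0.0571 without KO replicate 4. Leaving out KO replicate 4 gave Camk1d a log2 fold change of 0.96 ± 0.42 (edgeR adjusted p = 0.540), and across all other settings that tested it the adjusted p ran from 0.108 to 0.540.

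The kinase kinases split in the same way between an abundant and a sparse form. Camkk2 (ENSMUSG00000029471, chromosome 5, 122731170 to 122779409, minus strand) stood at 6.39, 9.48, 8.15 and 10.1 CPM in Control. Its KO levels were 9.91, 6.67, 8.46 and 8.47 CPM, all within the Control range. Its log2 fold change was -0.02 ± 0.19 (SE, edgeR adjusted p = 0.963), with an interval of 0.731-fold to 1.32-fold, and its sign changed with library totals, with a block for the animal number, and without Control replicate 2, Control replicate 4 or KO replicate 2.

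Camkk1 (ENSMUSG00000020785, chromosome 11, 73019008 to 73042073, plus strand) had 16, 21, 14 and 8 counts in Control and 18, 40, 35 and 46 counts in KO. This was 0.780, 0.505, 0.732 and 0.401 CPM in Control and 0.370, 1.54, 1.38 and 2.31 CPM in KO. KO replicates 2 to 4 lay above all Control libraries, and KO replicate 1 was the lowest of the 8. The log2 fold change was 1.19 ± 0.52 (SE, edgeR unadjusted p = 0.0465, adjusted p = 0.350). It was 1.52 ± 0.37 without KO replicate 1 (edgeR adjusted p = 0.108), 0.84 ± 0.53 without KO replicate 4 (adjusted p = 0.697) and 0.79 ± 0.60 with a block for the first 3 digits of the animal number (adjusted p = 0.612).

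**Figure D3:**
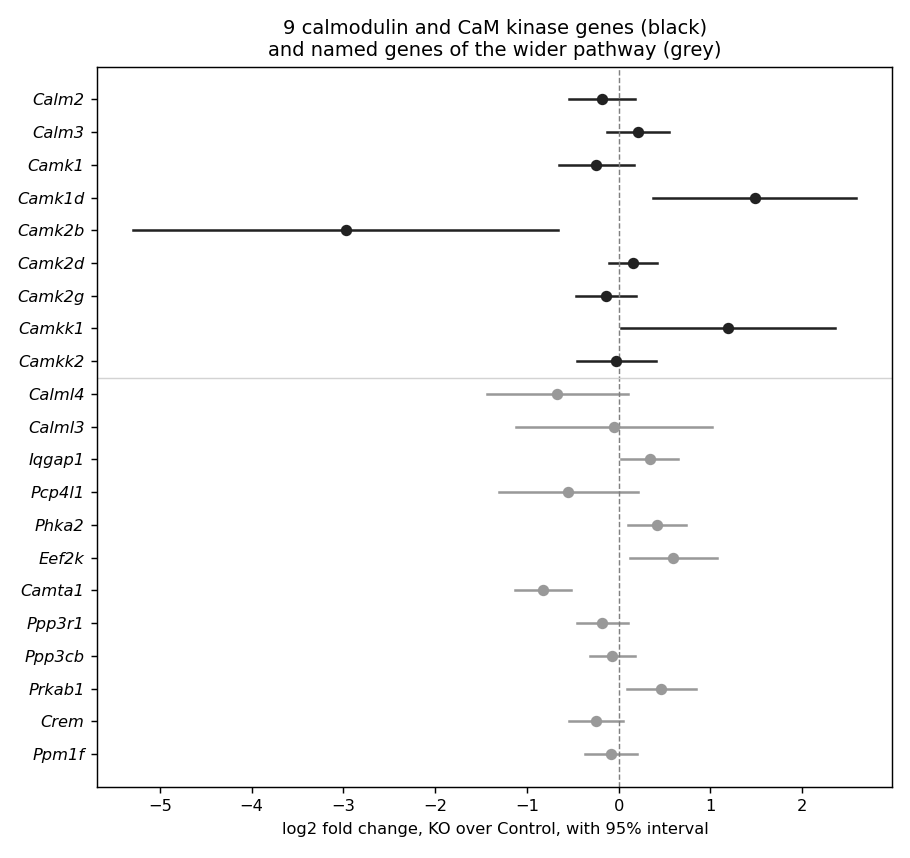
Log2 fold change of KO over Control (horizontal axis) with its 95% interval, for the 9 genes in black and for named genes of the wider pathway in grey. The intervals of Camk1d, Camk2b and Camkk1 do not reach 0 but are wide, and none of the 9 passed after adjustment over all genes. Camta1, at -0.83, is the gene drawn here that passed.

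The set thus held 6 genes measured with narrow error and 3 measured with wide error. For Calm2, Calm3, Camk1, Camk2d, Camk2g and Camkk2 the 95% intervals together ran from 0.638-fold to 1.46-fold, so changes of 2-fold lay outside all 6. For Camk1d, Camk2b and Camkk1 the fold changes were over 2-fold and the intervals spanned more than 4-fold each. Those 3 were 33.3% of the 9 genes, which were chosen with earlier results known. Over all genes tested, 4.98% differed by at least 2-fold either way. Among the 1252 genes averaging under 1 CPM it was 15.3%, and among the 10685 averaging 5 CPM or more it was 1.99%. Of the 9 genes, 2 averaged under 1 CPM (Camk1d and Camk2b).

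**Figure D4:**
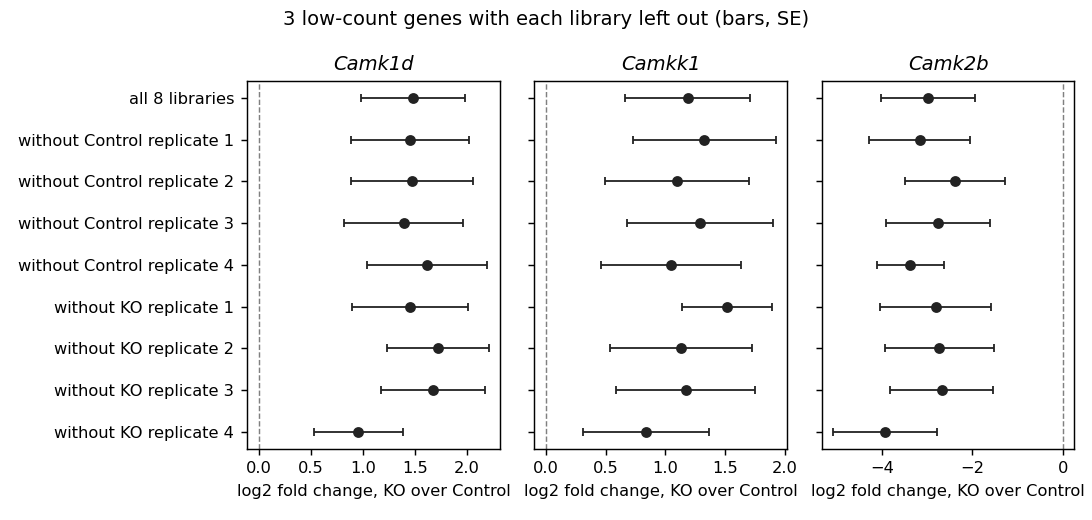
Log2 fold change of KO over Control (horizontal axes) for Camk1d, Camkk1 and Camk2b with all 8 libraries and with each library left out in turn. Bars are SE. The direction held in every fit shown, and the size moved most without KO replicate 4. Camk1d then stood at 0.96 and Camkk1 at 0.84, nearer to 0, and Camk2b at -3.93, further from 0.

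KO replicate 4 was the highest of all 8 libraries for Calm3, Camk1d, Camk2d and Camkk1, and the lowest for Camk1 and Camk2g. It was also the library with most signal from dividing cells. All 7 listed cell cycle markers were called higher in KO, and their sum was 9.22 to 12.7 CPM in Control, 29.2 to 73.6 CPM in KO replicates 1 to 3 and 105 CPM in KO replicate 4. None of these markers was at 0 in any library. Of the 8 leukocyte markers, 6 passed the filter and 0 were called, with sums of 12.0 to 17.5 CPM in Control and 7.59 to 25.8 CPM in KO. Ptprc, the pan-leukocyte phosphatase, was at 1.02 to 3.11 CPM in Control and at 2.51, 6.55, 3.46 and 10.9 CPM in KO, and all but KO replicate 1 lay above the Control range. The macrophage gene Cd68 was at 0.418 to 0.577 CPM in Control and at 0.905, 2.62, 0.787 and 3.81 CPM in KO, so that KO replicate 4 was highest for both. The groups did not overlap for Cd68 (log2 fold change 1.96, edgeR adjusted p = 0.116), as in 9.44% of all genes tested. C1qa, Tyrobp, C1qb and C1qc were instead lowest in KO replicate 4, the first pair at 0 and the second at 0.0501 CPM each. Cd74 was lowest there too, at 7.92 to 13.3 CPM in Control and 2.59, 12.15, 7.32 and 1.955 CPM in KO. Its log2 fold change was -0.73 (edgeR adjusted p = 0.533), and that of Lyz2 was -0.22 (adjusted p = 0.910). The sum of the thick ascending limb markers was lowest in KO replicate 4 as well (2738 CPM, of which Umod 2427), with 1 of 5 called lower and none at 0. So were the sums for distal convoluted tubule (7131 CPM), proximal tubule (1188 CPM, Control replicate 1 at 1191) and principal cells (157 CPM). The same held for endothelial (6.265 CPM), stroma (1.20 CPM), podocyte (1.85 CPM) and neuron (19.7 CPM) markers, but not for intercalated cells (590 CPM). The part of dividing cells, leukocytes or neighbouring segments in the levels of Camk1d and Camkk1 was not tested.

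Ratios between paralogs do not depend on how libraries are scaled, except those of Camk2b, to which 0.5 CPM was added before the log. In all, 6 ratios were compared, each by an exact two-sided permutation test with adjustment over the 6. The log2 ratio of Camk1 to Camk1d averaged 4.55 ± 0.28 (SD, n = 4) for Control but 3.01 ± 1.20 for KO. It was lower in all 4 KO libraries, between 1.42 and 4.05 against 4.16 to 4.78, with an exact p of 0.0286 and 0.171 after adjustment. Without any single Control library the exact p was 0.0857 or 0.114. The log2 ratio of Calm2 to Calm3 was 1.49, 1.20, 1.18 and 1.08 in Control and 0.74, 0.82, 1.21 and 0.77 in KO. All but KO replicate 3 lay below the Control libraries (difference -0.36, exact p = 0.114, adjusted 0.229). With a library left out, the exact p ran from 0.114 to 0.2 for 7 of the 8 libraries, with differences of -0.41 to -0.27, and was 0.0286 without KO replicate 3 (difference -0.46).

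The log2 ratio of Camk2d to Camk2g was 0.62 ± 0.32 in Control and 0.90 ± 0.30 in KO (exact p = 0.286, also 0.286 after adjustment), with overlapping groups. That of Camkk1 to Camkk2 was -3.85 ± 0.73 and -2.84 ± 1.31 (exact p = 0.257, adjusted 0.286). With 0.5 CPM added because of the library at 0, Camk2b to Camk2d went from -4.40 ± 1.11 to -5.72 ± 0.28 (exact p = 0.114, adjusted 0.229) and Camk2b to Camk2g from -3.79 ± 1.42 to -4.84 ± 0.52 (exact p = 0.229, adjusted 0.286). Camk2b itself stood at 0.123, 0.0771, 0.0393 and 0.501 CPM in KO. The 0.5 CPM added thus weighs heavily in its KO ratios and narrows their spread. With a library left out, the exact p of Camk2b to Camk2d ran from 0.114 to 0.171 for 7 of the 8 libraries, with differences of -1.44 to -0.997, and was 0.0286 without Control replicate 4 (difference -1.83). No ratio passed after adjustment.

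**Figure D5:**
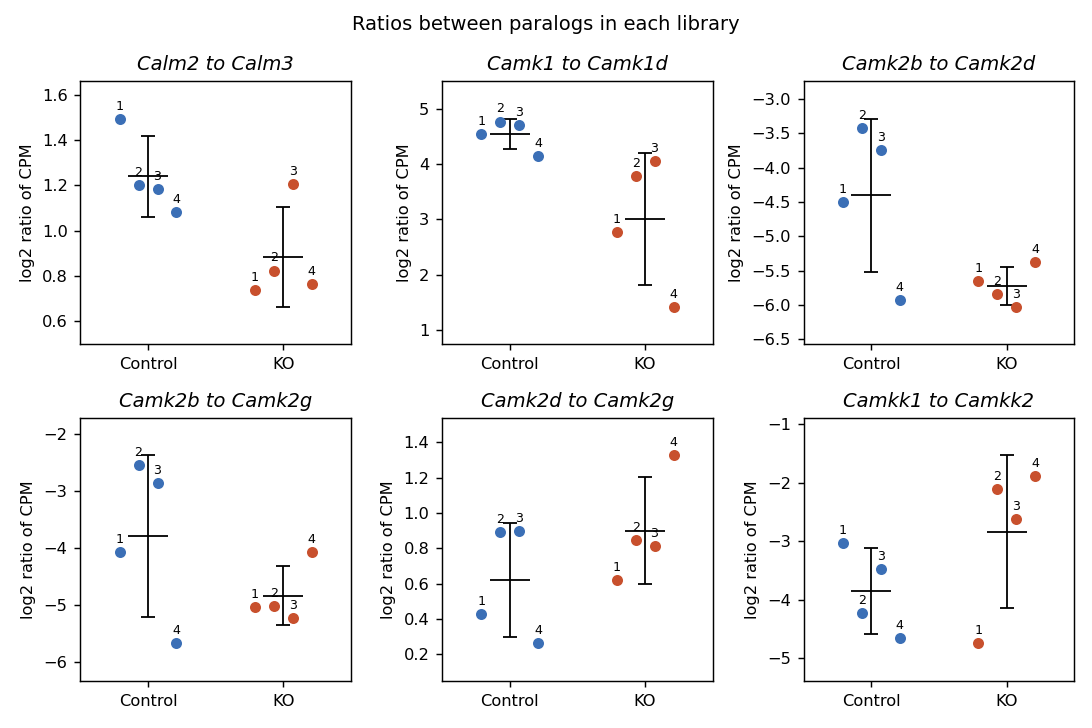
Log2 ratio of CPM between 2 paralogs (vertical axes) in each library, with mean and SD, and with 0.5 CPM added in the panels of Camk2b. The ratio of Camk1 to Camk1d is lower in all KO libraries, and the ratio of Calm2 to Calm3 in all but replicate 3. Control replicate 4 alone makes both Camk2b ratios overlap, and KO replicate 1 alone that of Camkk1 to Camkk2. For Camk2b to Camk2g, however, Control replicate 1 (-4.0716) and KO replicate 4 (-4.0720) all but coincide. The ratio of Camk2d to Camk2g overlaps more widely.

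Around the 9 genes, 63 further genes of the pathway were followed, of which 50 passed the filter. Of these, 0 were called higher and 1 lower, with a median log2 fold change of -0.04. At an unadjusted p under 0.05 there were 5 (Iqgap1, Eef2k, Phka2 and Prkab1 higher, Camta1 lower), or 10% against 13.9% of all genes. The groups did not overlap in 6 (Iqgap1, Eef2k, Phka2, Cask and Prkaa1 above, Camta1 below), or 12% against 9.44% of all genes.

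The gene called was Camta1, a calmodulin-binding transcription activator. It fell from 77.0, 58.5, 54.3 and 67.6 CPM in Control to 37.5, 40.1, 30.9 and 36.7 CPM in KO, so that the highest KO library lay well below the lowest Control library. The log2 fold change was -0.83 ± 0.14 (SE, edgeR adjusted p = 0.0193). The call was lost without Control replicate 4 (adjusted p = 0.0671), without KO replicate 2 (0.0591) or KO replicate 4 (0.0543), and with the animal number block (0.0970), at log2 fold changes between -0.88 and -0.77. The block also takes Control replicate 4 out of the contrast, so it is not separate from the fit without that library. Its paralog Camta2, named after its values were seen, had 0.31 (edgeR adjusted p = 0.444). Of the 8 calmodulin-dependent effectors tested, Camta1 was the single call.

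The remaining groups held no call by edgeR. Of 3 listed calmodulin-like genes, 2 were tested, Calml4 at -0.67 (adjusted p = 0.414) and Calml3 at -0.05 (adjusted p = 0.972), whose sign changed with library totals and with limma-voom. Of 8 proteins that bind and hold calmodulin, 6 were tested (median -0.12). Among them were the scaffold Iqgap1 at 0.34 (adjusted p = 0.319) and Pcp4l1 at -0.55 (adjusted p = 0.493). Of 19 other calmodulin-regulated kinases and CaMKII inhibitors, 14 were tested (median 0.08). The kinase of elongation factor 2, Eef2k, stood at 2.44 to 3.32 CPM in Control and 3.46 to 4.51 CPM in KO, with a log2 fold change of 0.60 ± 0.21 (SE, edgeR adjusted p = 0.234). Phka2, a regulatory subunit of phosphorylase kinase that has calmodulin as a subunit, had 0.42 ± 0.14 (adjusted p = 0.222). The CaMKII inhibitor Camk2n1, also named after its values were seen, stood at 104 to 155 CPM in Control and 116 to 138 CPM in KO, with a log2 fold change of 0.06.

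A list of 16 genes around proteins that CaM kinases act on held AMPK subunits, the CREB family, class IIa histone deacetylases and their MEF2 partners. Of these, 15 were tested, with a median of 0.04. The AMPK subunit Prkab1 had 0.47 ± 0.17 (SE, edgeR adjusted p = 0.253), and Crem, a CREB family member, -0.25 ± 0.13 (adjusted p = 0.423). Of the calcineurin subunits, 4 of 5 were tested (median -0.06); Ppp3r1 had -0.18 and Ppp3cb -0.07 (adjusted p = 0.786). Of the phosphatases that reverse CaM kinase phosphorylation, Ppm1f was tested and had -0.08 ± 0.13 (adjusted p = 0.793).

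For each of the 9 genes, the 2 genes with the most similar pattern were sought by Pearson's r of log2 CPM over the 8 libraries after subtracting each group's mean. About 9340 genes averaging 10 CPM or more were compared, so high values of r occur readily with 8 libraries that share depth and composition, and they are given as a description. Calm2 was nearest to Nxt1 (r = 0.994) and Hmces (0.987), and Calm3 to Eml2 (0.9658) and Tmem115 (0.9655). Camk2d was nearest to Sowahc (0.964) and Vamp7 (0.962), Camk2g to the acetyltransferase Kat2b (0.984) and Slc22a17 (0.974), and Camk2b to Dcaf6 (0.961) and Plaa (0.957). Camk1 was nearest to the bile acid receptor Nr1h4 (0.962) and Sptlc2 (0.949), and Camk1d to the quinone reductase Nqo1 (0.952) and the actin-severing protein Dstn (0.943). Camkk1 was nearest to the histone H1 gene Hist1h1c (0.957) and to Mcm6 (0.951), a subunit of the replicative helicase, and Camkk2 to Trrap (0.992) and Ccnd1 (0.989). Of these 18, Mcm6 (log2 fold change 1.23) and Sowahc (0.61) were called higher in KO by edgeR (adjusted p = 0.0142 and 0.0499), a contrast that the measure of likeness does not use.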

How the data were processed

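The authors deposited 1 table per library with raw counts of reads for each Ensembl gene, not normalized, per the file headers. The tools bcl2fastq 2.20, fastp 0.20.0 and STAR 2.7.4a and the build GRCm38.p6 are named in the submitters' processing notes. No source used here names the counting program, annotation release or strand setting. Symbols, coordinates and exon lengths came from GENCODE vM21 on GRCm38 (42347 of 42416 identifiers matched). Groups follow the genotype label. Each label names another animal number, and replicate numbers only name libraries.

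Genes were kept by filterByExpr, scaled by TMM and compared with edgeR 4.0.16 (glmQLFit and glmQLFTest) under R 4.3.3. Each SE was derived from the log2 fold change and its F statistic. The test was checked on simulated counts, where only genes averaging over 5 CPM were changed. That check does not cover Camk1d, Camk2b and Camkk1, which lay below this level. Levels and ratios per library were compared by exact permutation tests over 70 assignments, on log2 CPM, with 0.5 CPM added where Camk2b, at 0 in 1 library, was involved. Depth per library limits the genes with few counts, and no count interval covers variation between animals. Alternatives were DESeq2 1.42.0, limma 3.58.1 voom with quality weights, other scalings and filters, terms for file name form and animal number, and leaving out each library.

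Named genes were the 9 members, pathway genes past the threshold (or the 2 with the smallest p in a list), and the 2 likest genes per member. Members and lists were chosen with earlier results of these data known. A pathway gene of the lists is not reported here.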

Additional observations from a re-analysis of the deposited data

Results flagged for a closer look

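Among the 30 sets of 4 libraries examined (9 genes and 6 ratios in each group), 1 held a library apart from the other 3. For Calm3, Control replicate 1 had 168.1 CPM while Control replicates 2 to 4 had 138 to 143 CPM. That gap was 0.833 of the group's range, past Dixon's 95% critical value. Chance marks about 1 in 20 such sets. The same library was the highest of the 8 for Calm2, at 474 CPM.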

How the results depend on the processing

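None of the 9 genes was called under any of the 17 other settings, although 5 CPM in 4 libraries left only 6 of them to test. Calls over all genes numbered 749 by DESeq2, 519 by limma-voom, 140 with that stricter filter, 199 with a term for file name form, 29 with the animal number block and 36 to 388 with a library left out. In the wider pathway they numbered 0 with the block and 0 to 1 with a library left out. Genes of the set with a permutation p under 0.05 numbered 2 with library totals and 0 to 2 with a library left out, as did ratios in the latter case (0 to 2). With library totals the log2 fold changes of Camk2g, Camkk2, Ppp3cb and Ppm1f turned to 0.0104, 0.118, 0.0790 and 0.0689, and the log2 levels of Camk2g and Camkk2 to 0.0208 and 0.131. Camkk2 turned to 0.0642 with the block. With a library left out, Camkk2 ran from -0.14 to 0.0708 (without Control replicates 2 and 4 and KO replicate 2 it was 0.0318, 0.0631 and 0.0708), Ppp3cb from -0.12 to 0.0028 and Ppm1f from -0.16 to 0.0132. The log2 level of Camkk2 ran from -0.15 to 0.0874 (0.0407, 0.07 and 0.0874 without the same 3 libraries). Calml3 turned to 0.0965 with library totals and 0.139 with limma-voom, and ran from -0.31 to 0.297 with a library left out (0.124, 0.297 and 0.199 without Control replicates 1 and 2 and KO replicate 1). The cause was not tested. Depth limits Camk1d, Camkk1 and Camk2b, at 0 to 108 counts per library.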

Other observations

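Several genes of the pathway had too few counts to be tested in the main fit. Camk2a and Camk4 held 82 and 2 counts over the 8 libraries, and Calm4 and Gap43 held 0. Pnck, another kinase of the CaM kinase I family, held 96 counts and was not tested in the main fit. It stood at 0.780, 0.650, 0.418 and 0.602 CPM in Control and at 0.370, 0.116, 0.275 and 0.251 CPM in KO, so that all KO libraries lay below all Control libraries. It is named after its values were seen, and 9.44% of all genes tested in the main fit showed no overlap. Without the filter on low counts, all 19 genes of its list were tested and 0 were called.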
